A study of Mus musculus with 12 samples.

Results

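The loss of one Tia1 copy in mice that carry no tau transgene was examined in the cortex of 9-month-old animals. The comparison takes the 3 libraries whose titles name a Tia1 heterozygote (Tia1+/-) and the 3 whose titles name wild type (WT), which is 6 of the 12 libraries of the series. Titles and genotype entries contradict each other for the Tia1+/- and the P301S Tia1+/- libraries, where each set of entries states the genotype in the other set of titles, and the titles were followed. The results cover the 14838 autosomal genes among the 15440 genes that passed the filter on low counts. Levels are in CPM, which are counts divided by the scaled library size, and each library was made from 1 mouse. The p values rest on the spread between libraries of the same group, estimated over all 12 libraries together.

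The Tia1 allele, Tia1tm1Andp, was made in Tia1 knockout mice that had been crossed back to C57BL/6J, and the heterozygotes came from crosses of these mice with PS19 mice. The PS19 line carries a human MAPT cDNA with the P301S mutation behind the Prnp promoter, and the WT and Tia1+/- animals are the ones without it. The other 6 libraries, PS19 and P301S Tia1+/- with 3 each, hold the same pair of Tia1 genotypes with the transgene. They are used for comparison and in the estimate of the spread. The question that the comparison addresses is what 1 Tia1 copy in place of 2 does to the cortical transcriptome when no tau pathology is present.

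TIA1 is an RNA-binding protein that helps to start the assembly of stress granules, the cytoplasmic bodies in which stalled messenger RNAs gather when translation is shut down. It also binds U-rich sequences in introns and in messenger RNAs, where it acts on splice site choice and on translation. Stress granules form downstream of the same eIF2 alpha phosphorylation that the unfolded protein response uses. Chaperones of the endoplasmic reticulum (ER), heat shock chaperones and RNA-binding proteins were therefore among the groups of interest. The gene lists and their members were, however, chosen with earlier results of these data known. Counts of called list members beside those of all genes are therefore descriptions and not independent tests.

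Total counts were between 11978962 and 13587922 in the WT libraries and between 14941823 and 15307751 in the Tia1+/- libraries. Replicates of a group differed by more than sampling noise, with a chi-square per degree of freedom of 12.6 to 72.4, so each library was counted once. Markers show that the libraries do not hold cortex alone. The summed level of 16 striatal genes was 3187 CPM in Tia1+/- replicate 3 and 422 to 454 CPM in the other 5 libraries. The summed level of 15 genes of olfactory sensory axons and bulb was 1551 CPM in WT replicate 1 and 92.8 to 313 CPM in the other 5. The groups also differ in the genes that mark sex, although the study's methods name male mice except where noted otherwise. The 4 Y-linked genes summed to 270 to 349 CPM in every WT library and to at most 0.322 CPM in the Tia1+/- libraries, and Xist, the X inactivation RNA, was at most 0.423 CPM in WT and 217 to 367 CPM in Tia1+/-. Sex and Tia1 genotype therefore cannot be told apart in any result given here, also not with the transgene, where PS19 held 257 to 269 CPM of the Y-linked genes and P301S Tia1+/- at most 0.179.

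Tia1 itself was at 93.8, 76.8 and 75.4 CPM in the WT libraries and at 61.4, 62.8 and 79.8 CPM in the Tia1+/- libraries. The groups overlapped through Tia1+/- replicate 3, and edgeR's quasi-likelihood test gave an adjusted p of 0.239 (log2 fold change -0.27, standard error 0.116). Gene counts do not separate the alleles, and the deleted part of the gene was not examined, so this level is a weak check of the label. Tial1, its closest relative, was at 91.2, 90.9 and 78.6 CPM in WT and at 74.2, 67.4 and 87.6 CPM in Tia1+/- (log2 fold change -0.19, adjusted p = 0.396). Mapt and Prnp, which could mark a transgene read in mouse genes, also overlapped between the groups, with adjusted p values of 0.316 and 0.823. Mapt was at 256, 369 and 413 CPM in WT and at 502, 455 and 344 CPM in Tia1+/-. It was at 439 to 462 CPM in PS19 and at 336 to 357 CPM in P301S Tia1+/-. Prnp was at 1334 to 1879 CPM in WT and 996 to 1922 CPM in Tia1+/-. It was at 2018 to 2158 CPM in PS19 and 1404 to 1535 CPM in P301S Tia1+/-. Both genes were thus lower in P301S Tia1+/- than in PS19 without overlap (edgeR adjusted p = 0.254 and 0.220). Neither gene settles whether titles or genotype entries are right.

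Of the 14838 autosomal genes, 97 (0.654%) had an adjusted p under 0.05, 62 of them (0.418%) lower in Tia1+/- and 35 (0.236%) higher. The changes were mostly moderate, with 28 of the 97 under 1.5-fold and 25 over 2-fold. The genes that fell included 11 chaperones of the ER and the cytosol, the immediate early genes Fosb and Fosl2, Zswim4 and P4ha1, and those that rose included Fut10, Pop4, Sox2ot and genes of oligodendrocytes. The median log2 fold change over all 14838 genes was 0.00605. In 2973 genes (20.0%) the 3 values of one group did not overlap those of the other, and all 97 called genes are among them. An unadjusted p under 0.05 was found in 2831 genes, 1544 lower and 1287 higher.

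**Figure D1:**
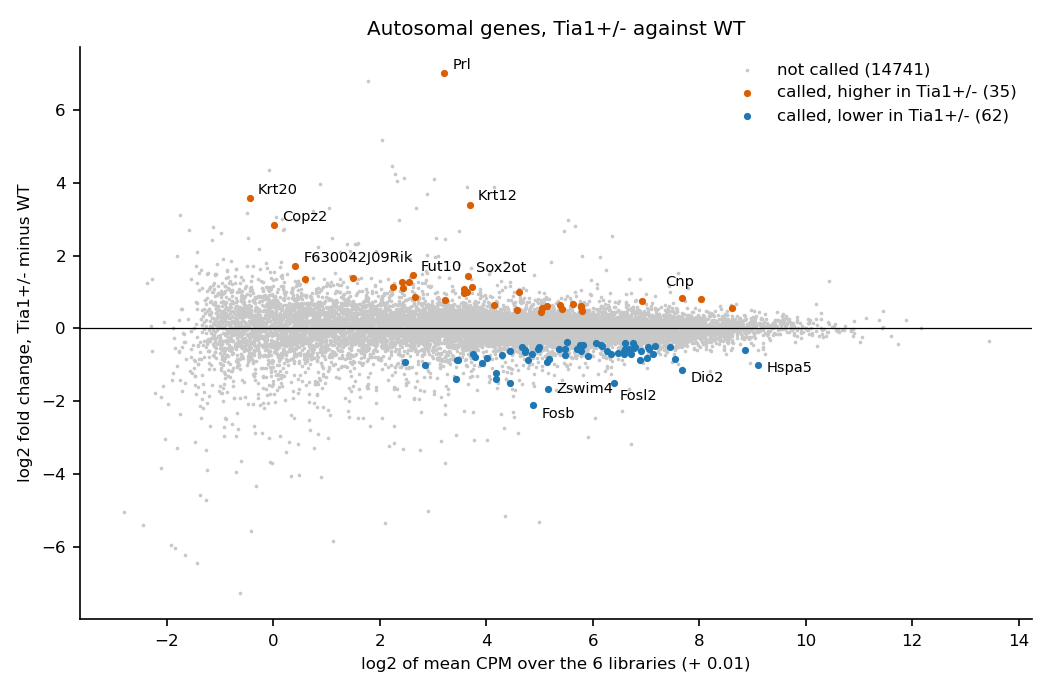
Log2 fold change of Tia1+/- minus WT (vertical axis) against the log2 of the mean CPM of the 6 libraries (horizontal axis) for 14838 autosomal genes. Orange points are the 35 genes called higher in Tia1+/-, blue points the 62 called lower, and gray points are not called; many gray points lie farther from 0 than coloured ones because their replicates spread more.

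The threshold lies close to most of these genes, since 72 of the 97 had an adjusted p above 0.04 and 3 had one under 0.01. The number called was 17 without WT replicate 1, 5 without WT replicate 2, 465 without WT replicate 3, and 3, 4 and 11 without Tia1+/- replicates 1, 2 and 3. DESeq2's Wald test called 934, with 96 of the 97 among them. Leaving out both Tia1+/- replicate 3, with its striatal genes, and WT replicate 1, with its olfactory genes, gave 250, of which 70 were among the 97. Genotype entries in place of titles gave 187, of which 42 were among the 97. A fit of these 6 libraries alone, which has fewer degrees of freedom and does not share its spread with the other libraries, called 1. The libraries with the transgene fitted alone gave 2904 calls between P301S Tia1+/- and PS19, against 29 in the reported fit. The cause of these changes was not tested. The 42 called genes named by the rule given with the methods kept their direction in every alternative that gave them a value. Their groups did not overlap by the choice of genes, so only the covariates and the genotype entries could readily have changed it. With genotype entries in place of titles 25 of the 42 passed the threshold. P4ha1 and Fut10 passed the threshold in 16 of 18 alternatives, more than any other named gene, and were the only 2 to pass without each of the 6 libraries in turn. With 3 libraries in each group, the smallest two-sided p of an exact permutation test for any 1 gene is 0.1.

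**Figure D2:**
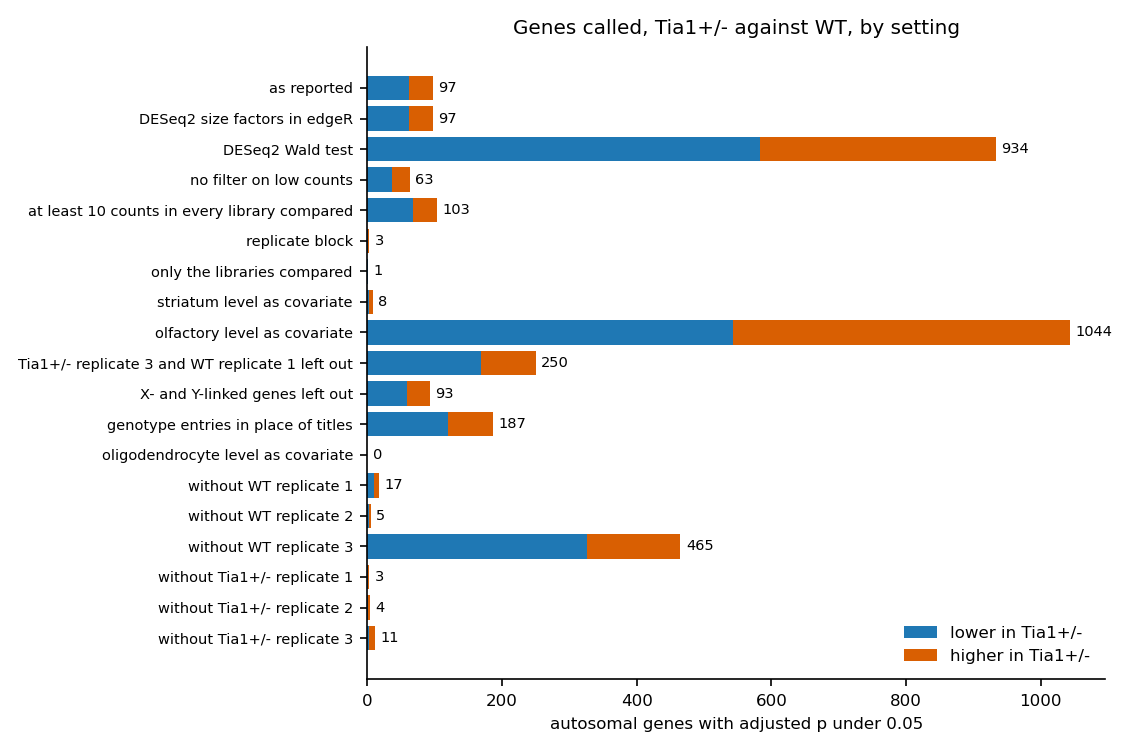
Number of autosomal genes with an adjusted p under 0.05 between Tia1+/- and WT (horizontal axis) in the reported fit and in each alternative (vertical axis), split into genes lower (blue) and higher (orange) in Tia1+/-. The count runs from 0 with the oligodendrocyte level as a covariate to 1044 with the olfactory level as a covariate, against 97 as reported.

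The folding machinery of the ER held the largest number of called genes of any list. Of 24 ER chaperones and folding enzymes tested, 6 were called lower and 0 higher, 17 were lower and 1 higher with an unadjusted p under 0.05, and 21 had a negative log2 fold change. Of all autosomal genes, 0.418% were called lower and 1544 of 14838 were lower with an unadjusted p under 0.05. The median of the list was -0.37, against 0.00605 over all autosomal genes. Its summed level was 5137, 4261 and 4017 CPM in the WT libraries and 3302, 3358 and 3482 CPM in the Tia1+/- libraries. Every WT library lay above every Tia1+/- library.

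Hspa5 encodes BiP, the main ER chaperone of the Hsp70 family and the protein that holds the sensors of the unfolded protein response inactive. It was at 984, 635 and 599 CPM in WT and at 347, 358 and 389 CPM in Tia1+/-. WT replicate 1 was the highest, and the other WT values also lay above every Tia1+/- value. Hspa5 fell by 1.02 ± 0.163 on the log2 scale (value ± standard error, adjusted p = 0.0375), and without WT replicate 1 the log2 fold change was -0.75. Manf, a small ER-resident protein secreted under ER stress, was at 81.8, 76.0 and 68.7 CPM in WT and at 44.2, 47.4 and 41.2 CPM in Tia1+/-. Its replicates were close to each other, and it fell by 0.77 ± 0.102 on the same scale (adjusted p = 0.0156). Sdf2l1, which works with the BiP cochaperone Dnajb11, was at 24.6, 15.9 and 19.8 CPM in WT and at 11.2, 10.2 and 9.54 CPM in Tia1+/- (log2 fold change -0.97, adjusted p = 0.0442). Dnajb11 itself had a log2 fold change of -0.63 (adjusted p = 0.0446). Dnajc3, known as p58IPK, a BiP cochaperone, fell by 0.62 (adjusted p = 0.0413), and the disulfide isomerase Pdia4 by 0.68 (adjusted p = 0.0446) on the log2 scale. These 3 genes also had no overlap between the groups.

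Most members that missed the threshold had negative values. Hsp90b1, the ER Hsp90, was at 778, 648 and 584 CPM in WT and at 494, 500.1 and 523 CPM in Tia1+/- (log2 fold change -0.41, adjusted p = 0.0807). Calr, the calcium-binding lectin chaperone calreticulin, had a log2 fold change of -0.39 (adjusted p = 0.0947), Pdia6 one of -0.50 (adjusted p = 0.0574) and Creld2 one of -0.93 (adjusted p = 0.0517). Sil1, the nucleotide exchange factor of BiP, had a log2 fold change of 0.41 (adjusted p = 0.142) and was the member with a positive value and an unadjusted p under 0.05. Oligodendrocyte markers were higher in Tia1+/-, and with their level or the striatum level as a covariate 0 members were called, as in a fit of the 6 libraries alone, while DESeq2 called 12. The count of called members was 2 without WT replicate 1, 11 without WT replicate 3, and 0 without WT replicate 2 or without any 1 of the Tia1+/- libraries. The median of the list stayed between -0.45 and -0.20 in all 18 alternatives.

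Promoter sequences are shown for the 3 called ER genes and the 1 called heat shock gene whose window holds an exact match to the response element of its pathway. Windows of 300 bases around the RefSeq start sites (GRCm38.p6, 250 bases before and 50 after the start) were found for 10985 of the autosomal genes tested. Exact matches on either strand were searched for the ER stress element ERSE (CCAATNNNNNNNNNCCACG), for ERSE-II (ATTGGNCCACG) and for the heat shock element, written as 3 alternating units (GAANNTTCNNGAA or TTCNNGAANNTTC). ERSE is bound by NF-Y with ATF6 or XBP1, and the heat shock element by HSF1. Capitals mark the matches. The windows are chr2:34771840-34772139 for Hspa5, chr14:118937682-118937981 for Dnajc3, chr16:22857595-22857894 for Dnajb11 and chr9:18292017-18292316 for Chordc1, all on the plus strand.
Hspa5: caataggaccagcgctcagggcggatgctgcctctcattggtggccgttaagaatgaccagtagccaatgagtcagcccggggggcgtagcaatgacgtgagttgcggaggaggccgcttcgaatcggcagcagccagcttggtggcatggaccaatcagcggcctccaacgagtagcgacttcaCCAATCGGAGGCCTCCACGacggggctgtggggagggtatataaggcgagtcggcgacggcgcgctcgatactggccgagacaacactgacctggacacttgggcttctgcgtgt
Dnajc3: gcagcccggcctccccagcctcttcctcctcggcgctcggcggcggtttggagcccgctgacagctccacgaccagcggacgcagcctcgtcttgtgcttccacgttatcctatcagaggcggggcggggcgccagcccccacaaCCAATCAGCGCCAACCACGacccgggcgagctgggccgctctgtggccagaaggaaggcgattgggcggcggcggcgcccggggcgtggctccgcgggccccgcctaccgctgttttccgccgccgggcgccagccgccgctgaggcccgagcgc
Dnajb11: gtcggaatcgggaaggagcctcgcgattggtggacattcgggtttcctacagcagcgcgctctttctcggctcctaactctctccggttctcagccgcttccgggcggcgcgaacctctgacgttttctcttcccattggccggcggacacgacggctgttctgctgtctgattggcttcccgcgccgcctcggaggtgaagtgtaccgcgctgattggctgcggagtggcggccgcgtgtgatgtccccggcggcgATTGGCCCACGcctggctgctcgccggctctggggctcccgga
Chordc1: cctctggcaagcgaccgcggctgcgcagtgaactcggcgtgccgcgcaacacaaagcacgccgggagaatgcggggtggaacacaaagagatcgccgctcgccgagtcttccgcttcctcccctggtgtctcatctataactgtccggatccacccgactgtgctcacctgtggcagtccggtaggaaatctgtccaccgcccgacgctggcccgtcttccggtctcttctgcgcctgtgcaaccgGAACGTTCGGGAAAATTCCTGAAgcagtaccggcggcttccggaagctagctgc

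The ERSE match of Hspa5 begins 65 bases before the start site and that of Dnajc3 begins 105 bases before it. The ERSE-II match of Dnajb11 begins 7 bases after the start site. An ERSE match was found in 7 of the 18 ER chaperone genes with a window, against 18 of all 10985 genes (0.164%). The 7 were Calr, Canx, Creld2, Dnajc3, Hsp90b1, Hspa5 and Pdia6, and 2 of them are called. Of the 5 called ER chaperone genes with a window, Pdia4 and Sdf2l1 held none of these letters in theirs, and Manf had no window. The 3 matches in Chordc1 overlap one another, and the first begins 4 bases before the start. Heat shock elements were found in 4 of 23 heat shock genes with a window, Chordc1, Hspd1, Hspe1 and Hsph1, against 0.619% of all genes. All 5 called heat shock genes had a window, and Chordc1 was the only 1 with a match. The cAMP response element (TGACGTCA) was also searched for. It was found in 2 of 22 immediate early genes with a window, Btg2 and Dusp1, against 3.50% of all genes. Neither is called, and 0 of the 2 called early genes had a match. A match describes the letters in the window and does not show binding.

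Fewer genes were called in the other branches of ER stress. The share called over all autosomal genes was 0.654%. Xbp1, the transcription factor spliced by IRE1, was at 196, 165 and 161 CPM in WT and at 104, 117 and 99.7 CPM in Tia1+/-, with no overlap (log2 fold change -0.70, standard error 0.132, adjusted p = 0.0446). It was the 1 called gene among 21 sensors, transcription factors and ATF4 targets, whose median was -0.090. Atf4, the factor translated when eIF2 alpha is phosphorylated, was at 239, 226 and 208 CPM in WT and at 213, 216 and 123 CPM in Tia1+/- (adjusted p = 0.399). Ddit3, known as CHOP, had a log2 fold change of -0.63 (adjusted p = 0.0843), and the ATF4 target Asns had one of 0.22 (adjusted p = 0.586). Of 22 genes of ER-associated degradation and translocation, 1 was called, Derl2, a channel component of degradation. Derl2 was at 37.9, 37.9 and 37.0 CPM in WT and at 26.6, 25.6 and 26.8 CPM in Tia1+/- with no overlap (log2 fold change -0.51, standard error 0.0709, adjusted p = 0.0214). The median of that list was -0.072.

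Heat shock chaperones of the cytosol and mitochondria had called genes in the same direction. Of 30 tested, 5 were called lower and 0 higher, 22 were lower and 0 higher with an unadjusted p under 0.05, beside 0.418% of all autosomal genes called lower and 1544 of 14838 lower at that p, and the median log2 fold change was -0.34. The summed level was 12680, 11720 and 10800 CPM in WT and 9589, 9657 and 8764 CPM in Tia1+/-. Hspa1a, a stress-inducible Hsp70, was at 30.6, 21.7 and 23.7 CPM in WT and at 12.5, 11.6 and 8.12 CPM in Tia1+/- (log2 fold change -1.24, standard error 0.199, adjusted p = 0.0375). Its near-identical neighbour Hspa1b, with which reads can be shared, was at 35.9, 17.3 and 26.2 CPM in WT and at 10.8, 10.7 and 8.63 CPM in Tia1+/- (log2 fold change -1.40, adjusted p = 0.0446). The 2 genes followed the same order of groups without overlap. Chordc1, a cochaperone of Hsp90, was at 126, 130 and 111 CPM in WT and at 80.2, 80.1 and 86.3 CPM in Tia1+/- (log2 fold change -0.57, standard error 0.0835, adjusted p = 0.0268). Dnajb1, the Hsp40 that works with Hsp70, had a log2 fold change of -0.70 (adjusted p = 0.0458), and Dnajb5 had one of -0.87 (adjusted p = 0.0446).

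None of the 4 members that follow was called. Hspa8, the constitutive Hsp70, was at 4478, 3814 and 3435 CPM in WT and at 2924, 3086 and 2613 CPM in Tia1+/- (log2 fold change -0.44, adjusted p = 0.0880). Hsp90aa1 had a log2 fold change of -0.38 (adjusted p = 0.116), while Hsp90ab1 had one of 0.019 (adjusted p = 0.928). Hsf1, the regulator of the heat shock response, had a log2 fold change of -0.050 (adjusted p = 0.810). The called members numbered 18 with DESeq2's Wald test, 0 with the striatum or the oligodendrocyte level as a covariate or with only the 6 libraries fitted, 9 without WT replicate 3, 1 without WT replicate 2 and 0 without WT replicate 1 or without any 1 of the Tia1+/- libraries, and the median stayed between -0.38 and -0.24 in all 18 alternatives.

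**Figure D3:**
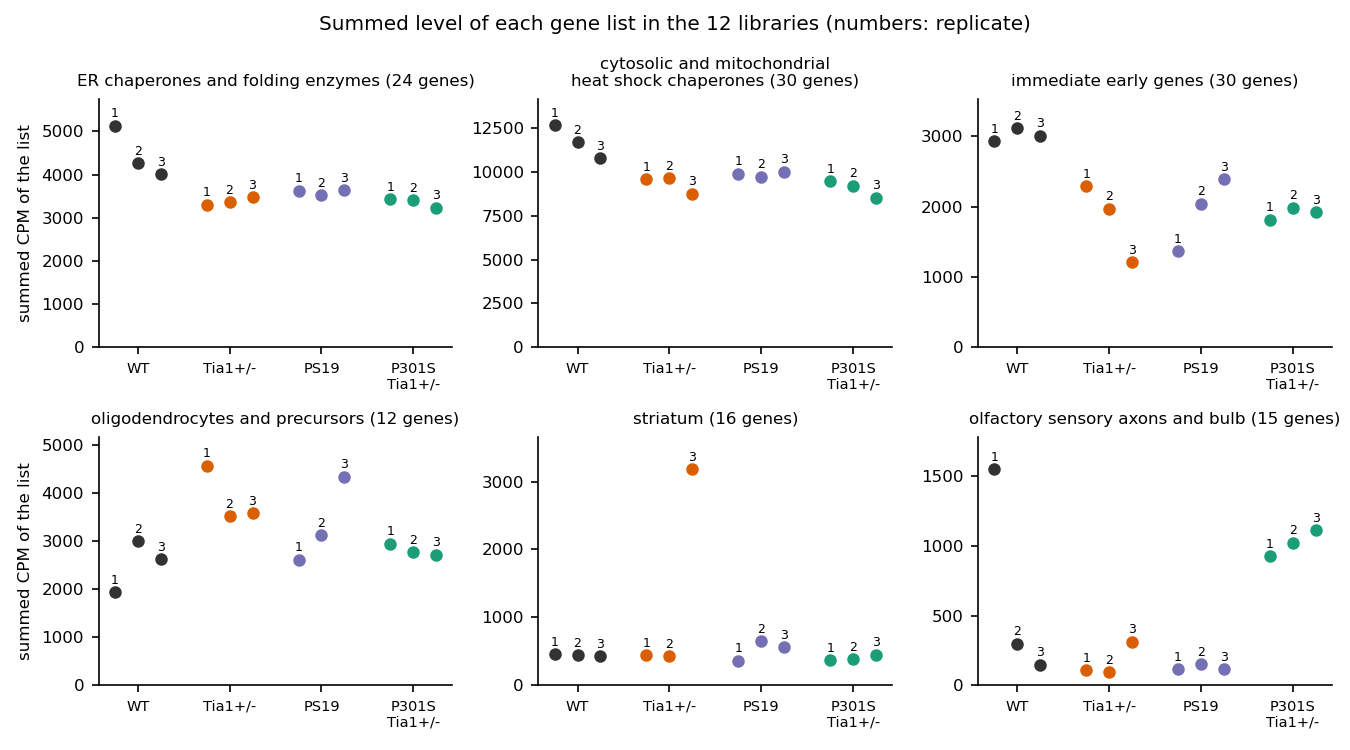
Summed CPM (vertical axes, from 0) of 6 gene lists in each of the 12 libraries, grouped by genotype, with the replicate number above each point. ER chaperones, heat shock chaperones and immediate early genes are higher in all 3 WT libraries than in the other 9, whereas striatal genes stand out in Tia1+/- replicate 3 and olfactory genes in WT replicate 1 and in all P301S Tia1+/- libraries.

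The WT libraries stood apart from the libraries with the transgene in the same groups of genes. The ER chaperones summed to 3524 to 3643 CPM in PS19 and to 3235 to 3428 CPM in P301S Tia1+/-, below the lowest WT value of 4017 CPM. The heat shock chaperones summed to 9740 to 10030 CPM in PS19 and to 8536 to 9474 CPM in P301S Tia1+/-, below the lowest WT value of 10800 CPM. Of the 62 genes called lower, 50 had their 3 WT values above those of all 9 other libraries, against 490 of all autosomal genes (3.3%), where the 3 Tia1+/- libraries were already below WT by the choice of genes. Of the 35 genes called higher, 21 had their 3 WT values below those of all 9 others, against 357 of all autosomal genes (2.41%). These values compare against the same WT libraries as the main comparison and are not independent of it. Whether the WT libraries were prepared apart from the others was not tested, since no batch is given in the labels.

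Immediate early genes, which are switched on within minutes of neuronal activity or stress, were lower in all 3 Tia1+/- libraries as a sum. They summed to 2925, 3114 and 3009 CPM in WT and to 2291, 1970 and 1209 CPM in Tia1+/-. Of 30 tested, 2 were called lower, 14 were lower with an unadjusted p under 0.05 and 27 had a negative log2 fold change, with a median of -0.65. Of all autosomal genes, 0.418% were called lower and 49.3% had a negative value. Fosb was at 85.6, 34 and 24.1 CPM in WT and at 14.01, 10.3 and 8.83 CPM in Tia1+/- (log2 fold change -2.12, standard error 0.405, adjusted p = 0.0446). Fosl2, another partner of the AP-1 transcription factor, was at 201, 92.6 and 80.0 CPM in WT and at 43.5, 36.7 and 51.0 CPM in Tia1+/- (log2 fold change -1.51, adjusted p = 0.0446). In both genes WT replicate 1 was more than 2 times as high as the other 2 WT libraries, which also lay above every Tia1+/- library. Without WT replicate 1 Fosl2 stayed past the threshold and Fosb did not, at a log2 fold change of -1.38.

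Not every member followed. Egr1 was at 70.5, 176 and 168 CPM in WT and at 148, 99.5 and 71.2 CPM in Tia1+/- (adjusted p = 0.614), and Npas4, a neuron-specific factor, was at 13.4, 14.5 and 17.1 CPM in WT and at 23.8, 19.4 and 20.0 CPM in Tia1+/- (adjusted p = 0.536). Arc, which acts at synapses, was lowest in Tia1+/- replicate 3 at 111 CPM, and the other 2 Tia1+/- libraries were at 382 and 329 CPM, within the WT range of 327 to 554 CPM. Homer1 was at 611, 743 and 612 CPM in WT and at 396, 349.9 and 274 CPM in Tia1+/- (log2 fold change -0.95, adjusted p = 0.0509). Cdkn1a, the cell cycle inhibitor p21, from the list of glucocorticoid-responsive genes, was at 49.4, 26.4 and 20.8 CPM in WT and at 13.5, 9.66 and 10.95 CPM in Tia1+/- (log2 fold change -1.50, adjusted p = 0.0446). The 2 called early genes were 1 without WT replicate 1, 4 without WT replicate 3 and 0 without any other library, and the median of the list ran from -1.15 to -0.14 over the 18 alternatives.

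The gene with the smallest p was P4ha1, the catalytic subunit of collagen prolyl 4-hydroxylase, which is located in the ER and is known to rise in hypoxia. It was at 118, 118 and 120 CPM in WT and at 71.9, 72.7 and 74.0 CPM in Tia1+/-. The values within each group were close together and the groups far apart, so that it fell by 0.70 on a log2 scale with an adjusted p of 0.00275 (standard error 0.0727). Ppp1r3c, which brings protein phosphatase 1 to glycogen, was at 125, 134 and 132 CPM in WT and at 83.5, 83.4 and 72.0 CPM in Tia1+/- (log2 fold change -0.71, standard error 0.0930, adjusted p = 0.0156). They were the 2 called members of 25 hypoxia-responsive and glycogen genes, with a median of -0.11, beside 0.654% of all autosomal genes called. Pfkfb3, a regulator of glycolysis, had a log2 fold change of -0.95 (adjusted p = 0.0806) and Vegfa one of -0.32 (adjusted p = 0.117), while the glycolytic Ldha had one of 0.16 (adjusted p = 0.617). Dio2, the astrocytic enzyme that makes active thyroid hormone, was at 253, 288 and 305 CPM in WT and at 143, 111 and 129 CPM in Tia1+/- (log2 fold change -1.14, standard error 0.216, adjusted p = 0.0446). P4ha1 and Dio2 are not members of the same list, and the astrocyte markers as a group did not follow, with 0 of 10 called by either tool, 0 at an unadjusted p under 0.05 and a median of -0.14.

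**Figure D4:**
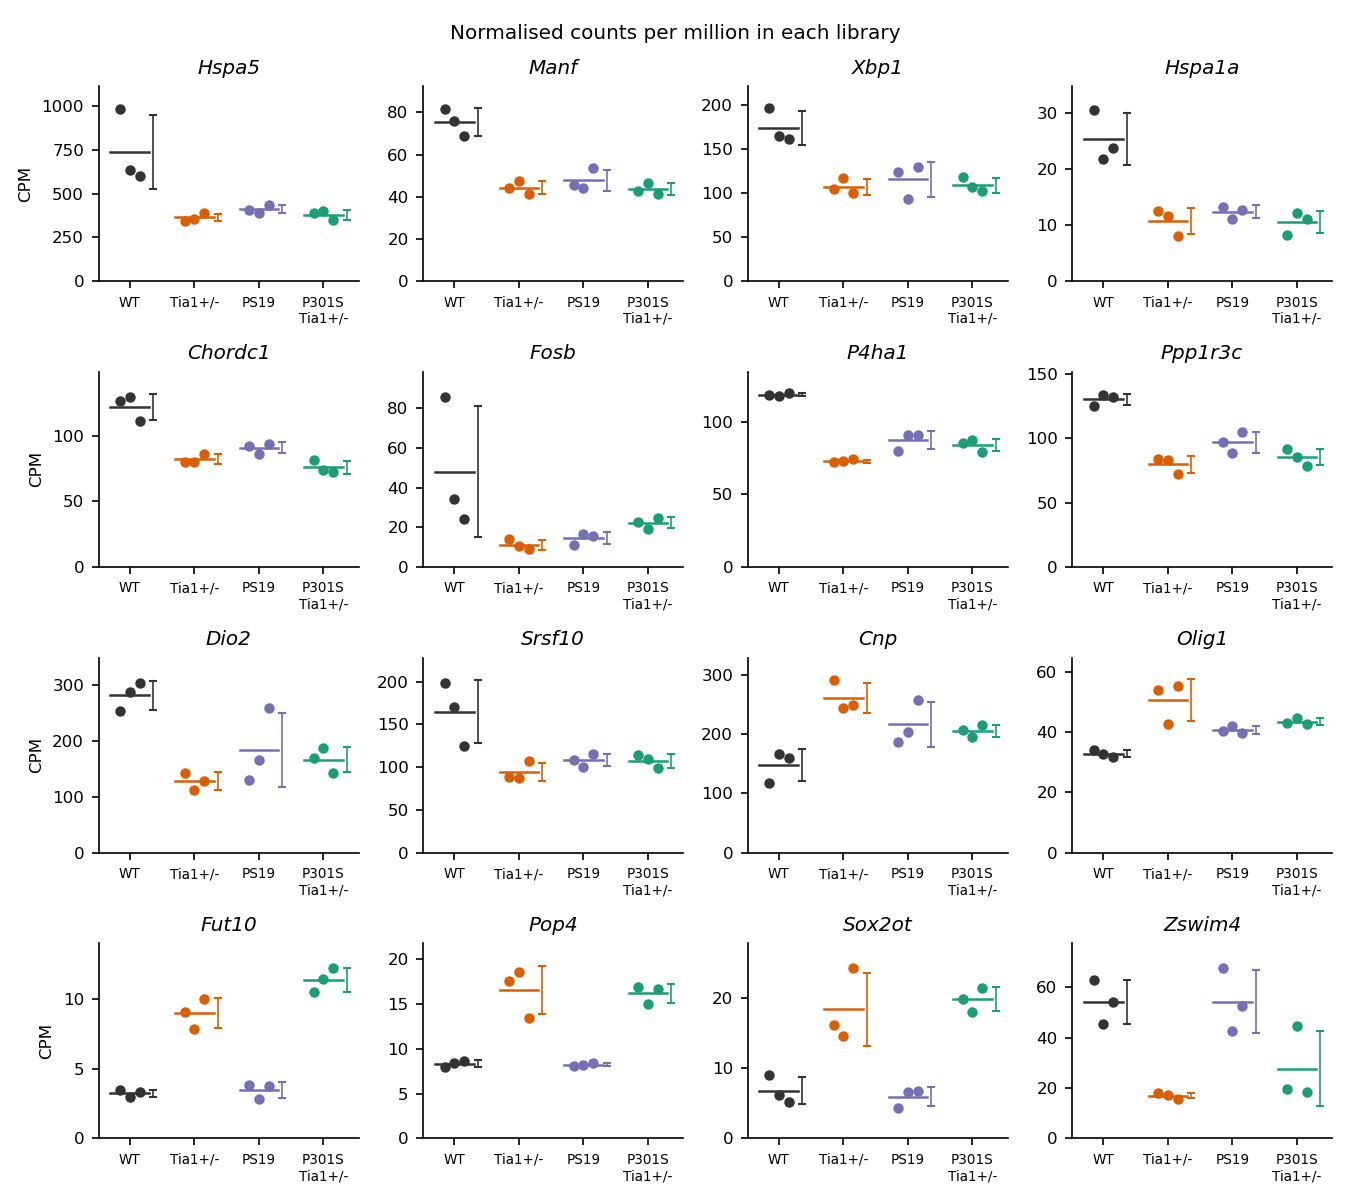
CPM (vertical axes, from 0) of 16 genes in each library of the 4 groups; points are libraries, horizontal lines are means and bars are 1 SD of 3 libraries. Fut10, Pop4 and Sox2ot are high in both Tia1+/- groups, whereas Hspa5, Manf, P4ha1 and Xbp1 are high only in WT.

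Among RNA-binding proteins, the shifts were small and mostly downward. Over all autosomal genes, 0.654% were called by edgeR and 49.3% had a negative log2 fold change. Of 21 genes of the Tia1 family and stress granule core, 16 had a negative log2 fold change with a median of -0.18, and 1 was called, the X-linked Fmr1, which lies outside the autosomal set. Fmr1, the fragile X protein gene, was at 150, 150 and 130 CPM in WT and at 112, 98.2 and 89.2 CPM in Tia1+/- (log2 fold change -0.52, adjusted p = 0.0470). The stress granule nucleator G3bp1 had a log2 fold change of -0.31 (adjusted p = 0.101) and no overlap between the groups, and Caprin1 and Atxn2 had adjusted p values of 0.220 and 0.415. Of 14 SR splicing factors, Srsf10 was called. Srsf10 was at 198, 170.4 and 125 CPM in WT and at 88.6, 87.3 and 107 CPM in Tia1+/- (log2 fold change -0.81, standard error 0.151, adjusted p = 0.0446). Srsf7, Tra2a and Srsf3 had log2 fold changes of -0.55, -0.80 and -0.57 with adjusted p values of 0.0699, 0.0741 and 0.0768, and the median of the list was -0.27. Hnrnpf was the 1 called gene of 19 hnRNP and related RNA-binding proteins, at 190, 152 and 135 CPM in WT and at 108, 106 and 106 CPM in Tia1+/- (log2 fold change -0.58, adjusted p = 0.0452). Tardbp, which is linked to motor neuron disease, had an adjusted p of 0.672. Srsf10 and Hnrnpf were each called without WT replicate 3 and not without any other of the 6 libraries, and the stress granule list had 2 called members without WT replicate 3, 0 without any other and 0 with DESeq2's size factors.

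Of 32 spliceosomal snRNP and LSm genes, 0 were called by edgeR, 7 were lower with an unadjusted p under 0.05 and DESeq2 called 1. Their median was -0.14 with 27 negative values. Over all 14838 autosomal genes, edgeR called 97 and DESeq2 934. An unadjusted p under 0.05 was found in 2831 of these, 1544 of them lower, and 49.3% had a negative value. Of 6 known targets of TIA1, 5 were tested and 0 were called by edgeR, with 2 at an unadjusted p under 0.05 and 2 called by DESeq2. Ptgs2, which encodes cyclooxygenase 2, was at 74.0, 57.7 and 55.8 CPM in WT and at 32.8, 27.1 and 10.8 CPM in Tia1+/- (log2 fold change -1.41, adjusted p = 0.0696). Cycs, the cytochrome c gene, had a log2 fold change of -0.39 (adjusted p = 0.102), and Trp53 one of -0.038 (adjusted p = 0.927). Other called genes outside the lists act on RNA as well and were picked out after their values were seen. They are Cpsf6 of the polyadenylation complex (log2 fold change -0.53, adjusted p = 0.0378), the N6-methyladenosine reader Ythdc1 (-0.55, adjusted p = 0.0446), the U1 snRNP component Prpf39 (-0.46, adjusted p = 0.0446) and the Integrator subunit Ints8 (-0.56, adjusted p = 0.0231). Ints8 was at 62.0, 67.8 and 57.0 CPM in WT and at 42.4, 43.1 and 41.0 CPM in Tia1+/-.

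**Figure D5:**
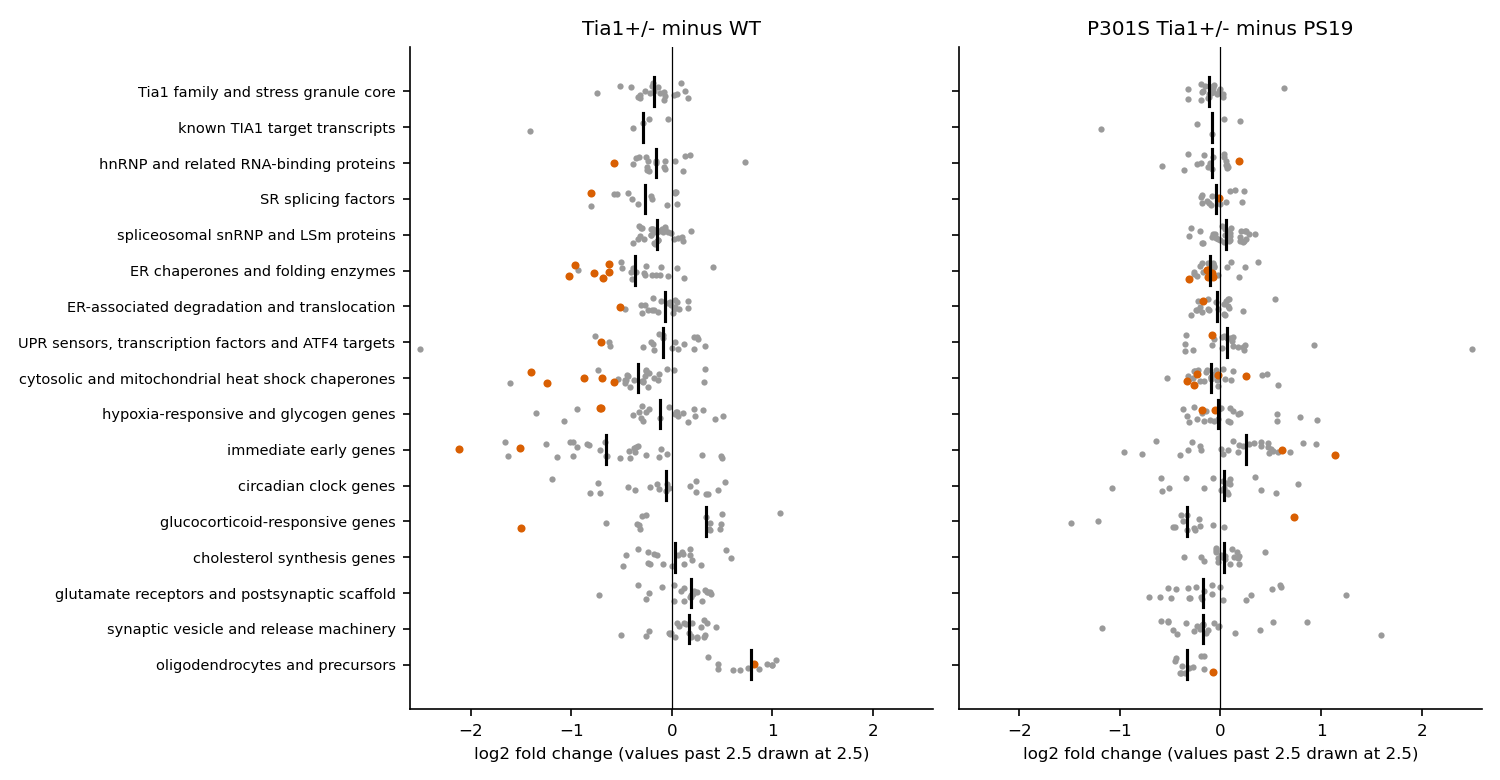
Log2 fold change (horizontal axis) of each tested member of 16 gene lists and of the oligodendrocyte markers (rows), for Tia1+/- minus WT on the left and P301S Tia1+/- minus PS19 on the right; orange marks autosomal members called in Tia1+/- against WT in both panels and black bars are list medians. The chaperone medians of -0.37 and -0.34 on the left are -0.099 and -0.096 on the right, and the median of the immediate early genes goes from -0.65 to 0.25.

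Among the genes that rose, Fut10, a fucosyltransferase, had the smallest adjusted p together with Pdlim2. Fut10 was at 3.44, 2.96 and 3.35 CPM in WT and at 9.11, 7.88 and 10.1 CPM in Tia1+/- (log2 fold change 1.47, standard error 0.167, adjusted p = 0.00518). Every Tia1+/- library was more than 2 times as high as every WT library. Pop4, a protein subunit of RNase P and RNase MRP, was at 7.92, 8.37 and 8.67 CPM in WT and at 17.5, 18.6 and 13.5 CPM in Tia1+/- (log2 fold change 0.99, standard error 0.130, adjusted p = 0.0156). Sox2ot, the long noncoding transcript that overlaps Sox2, was at 8.96, 6.17 and 5.25 CPM in WT and at 16.2, 14.6 and 24.3 CPM in Tia1+/- (log2 fold change 1.44, adjusted p = 0.0418). Entpd4, a nucleotide phosphatase of the Golgi, was at 74.4, 94.6 and 103 CPM in WT and at 151, 159.9 and 146 CPM in Tia1+/- (log2 fold change 0.75, adjusted p = 0.0250). These 4 genes are not members of a list, and in each the groups did not overlap. Without single libraries, Fut10 was called throughout, Pop4 and Entpd4 were called without WT replicates 1 or 3 or Tia1+/- replicate 3, and Sox2ot without WT replicates 1 or 3.

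Several of the largest rises were in genes with few counts in WT. Prl, the pituitary hormone prolactin, had 3, 1 and 1 counts in WT and 82, 246 and 515 counts in Tia1+/-. Against 3 counts in a WT library this rise was at least 72.2-fold (adjusted p = 0.0446), and without Tia1+/- replicate 3 at least 43.0-fold. Gh, a second pituitary hormone, had 1.24, 3.88 and 9.41 CPM in Tia1+/- and 0.640, 0.423 and 1.83 CPM in WT, the same order of the Tia1+/- libraries as Prl, with an adjusted p of 0.277. The pituitary marker list had 4 tested members, of which Prl was called, and its summed level was 519 to 650.2 CPM in WT and 347 to 606 CPM in Tia1+/-. Most of that sum is Chgb, which neurons also express. The mean log2 level of the list was 0.437, 0.311 and 0.426 in WT and 0.753, 1.26 and 1.49 in Tia1+/-, in the order of Prl, and 3 of the 4 tested members had positive values, 2 with an unadjusted p under 0.05 (median 1.71). The part of pituitary tissue in the result for Prl was not tested. Krt12, a keratin, was at 1.36, 1.61 and 3.65 CPM in WT and at 25.3, 26.7 and 18.7 CPM in Tia1+/- (log2 fold change 3.40, standard error 0.548, adjusted p = 0.0375). Krt20, another keratin, rose at least 5.32-fold with an adjusted p of 0.0452. The coatomer subunit Copz2 rose by 2.83 on the log2 scale (adjusted p = 0.0413), from 0.238 CPM on average in WT to 1.76 CPM in Tia1+/-. None of these 4 was called without WT replicate 1 or 2 or any Tia1+/- library.

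Markers of oligodendrocytes were higher in Tia1+/-. In bulk tissue, more cells of a type and more RNA per cell cannot be told apart, and the same holds for every list named here. All 12 markers of oligodendrocytes and their precursors had a positive log2 fold change with a median of 0.79, 11 had no overlap between the groups, against 20.0% of all autosomal genes, and 11 had an unadjusted p under 0.05. With genotype entries in place of titles the median was 0.205, 1 member had an unadjusted p under 0.05 and 0 were called by edgeR. Over all 18 alternatives the median ran from -0.0238, with the mean log2 level of these markers as a covariate, to 0.909. Their summed level was 1941, 3003 and 2621 CPM in WT and 4577, 3525 and 3580 CPM in Tia1+/-. One member was called, Cnp, an enzyme of the myelin sheath, at 117, 167 and 160 CPM in WT and at 291, 244 and 248.6 CPM in Tia1+/- (log2 fold change 0.82, standard error 0.151, adjusted p = 0.0446). Mobp, Mog and Mag, structural genes of myelin, had log2 fold changes of 0.999, 0.99 and 0.95 with adjusted p values of 0.0751, 0.0685 and 0.0678. Mbp, the myelin basic protein gene, was at 549, 1108 and 1061 CPM in WT and at 1788, 1276 and 1274 CPM in Tia1+/- (adjusted p = 0.210).

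Outside that list, Olig1, the lineage factor of oligodendrocytes, was at 34.02, 32.6 and 31.8 CPM in WT and at 54.0, 42.6 and 55.3 CPM in Tia1+/- (log2 fold change 0.63, standard error 0.0975, adjusted p = 0.0346). Picked out after their values were seen, the iron carrier gene Trf (log2 fold change 0.79), the protease Adamts4 (0.98) and the kinase Cdk18 (1.08), which are known from oligodendrocytes, were also called, each with an adjusted p of 0.0446. Cnp was called without WT replicate 3 and not without any other library, and Olig1 without WT replicate 3 or Tia1+/- replicate 2. The mean log2 oligodendrocyte level was used as a covariate, chosen after the data were seen. With it 0 autosomal genes were called by edgeR and 2212 had an unadjusted p under 0.05. In this fit the log2 fold change was -0.55 for Hspa5 and -0.76 for P4ha1, with adjusted p values of 0.293 and 0.0982.

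Microglial markers were higher in sum only in Tia1+/- replicate 3, at 629 CPM against 426 to 462 CPM in the other 5 libraries, and 0 of 12 were called by edgeR, 0 had an unadjusted p under 0.05 and 0 were called by DESeq2, although all 12 log2 fold changes were positive with a median of 0.21. The markers of striatum gave 0 of 16 called by edgeR, 13 at an unadjusted p under 0.05, 3 called by DESeq2 and a median of 2.26, which was 0.264 without Tia1+/- replicate 3. The olfactory markers gave 0 of 15 called by edgeR, 11 at an unadjusted p under 0.05, 4 called by DESeq2 and a median of -2.98. That median was -0.80 without WT replicate 1 and -2.85 without both WT replicate 1 and Tia1+/- replicate 3, where 8 members were called. With genotype entries in place of titles the median was 0.674 for the olfactory and 0.308 for the striatal markers. The olfactory median was also positive with the oligodendrocyte level (0.608) or the olfactory level (0.399) as a covariate. Over all 14838 autosomal genes, 2831 had an unadjusted p under 0.05 and DESeq2 called 934. Cortical layer markers were low in the same 2 libraries, at 1239 CPM in WT replicate 1 and 1354 CPM in Tia1+/- replicate 3, against 2265 to 2501 CPM in the other 4.

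Synaptic, metabolic and clock genes gave few or no calls by edgeR. Over all 14838 autosomal genes, edgeR called 97 and DESeq2 934, and 2831 had an unadjusted p under 0.05. Of 22 glutamate receptor and postsynaptic scaffold genes, 0 were called by either tool and 4 had an unadjusted p under 0.05, with a median of 0.19. Of 23 genes of synaptic vesicles and release, 0 were called, DESeq2 called 1 and 3 had an unadjusted p under 0.05, with a median of 0.17, and the sums followed the cortical layer markers in being lowest in WT replicate 1 and Tia1+/- replicate 3, at 9966 and 9777 CPM. Of 19 circadian clock genes, 0 were called, DESeq2 called 5 and 7 had an unadjusted p under 0.05 (median -0.054). Of 20 cholesterol synthesis genes, 0 were called, DESeq2 called 2 and 6 had an unadjusted p under 0.05, 3 in each direction (median 0.031). Of 15 glucocorticoid-responsive genes tested, Cdkn1a was the 1 called, with a list median of 0.34.

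Other called genes belong to no list, among them Pdlim2 and Nlrx1, which were picked out after their values were seen. Among those that fell, Ccnf, a cyclin with an F-box, was at 21.9, 13.3 and 11.9 CPM in WT and at 6.90, 5.52 and 5.41 CPM in Tia1+/- (log2 fold change -1.40, adjusted p = 0.0413). Med7, a Mediator subunit, was at 35.1, 31.8 and 30.6 CPM in WT and at 20.3, 21.5 and 20.5 CPM in Tia1+/- (log2 fold change -0.65, adjusted p = 0.0243). Both were apart in all libraries. Among those that rose, Pdlim2, a PDZ and LIM domain protein, was at 3.20, 3.64 and 3.50 CPM in WT and at 9.04, 8.34 and 7.41 CPM in Tia1+/- (log2 fold change 1.26, standard error 0.142, adjusted p = 0.00518). Nlrx1, a mitochondrial member of the NLR family, was at 2.72, 3.64 and 3.80 CPM in WT and at 7.87, 7.23 and 6.96 CPM in Tia1+/- (log2 fold change 1.12, adjusted p = 0.0272). With the transgene these 2 genes had log2 fold changes of 0.18 and 0.20, with adjusted p values of 0.489 and 0.508. Chid1 was at 39.5, 43.2 and 47.4 CPM in WT and at 63.6, 65.7 and 69.4 CPM in Tia1+/- (log2 fold change 0.61, adjusted p = 0.0375), and its PS19 values of 60.5 to 75.1 CPM overlapped those in Tia1+/-.

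The same contrast was available with the tau transgene, in libraries that share none with this one. Between P301S Tia1+/- and PS19, 29 autosomal genes (0.195%) were called, 20 higher and 9 lower. Sex differs between these groups in the same way as between Tia1+/- and WT, so the effects of sex and genotype cannot be told apart there either. The 29 calls became 1 to 6 when any 1 of these libraries was left out. Of the 97 genes called without the transgene, 69 (71.1%) had the same sign with it, against 43.6% of all autosomal genes, 17 had the same sign with an unadjusted p under 0.05, and 8 had the opposite sign with one. The genes that fell had a median log2 fold change of -0.69 without the transgene and of -0.089 with it, and the genes that rose had 0.98 and 0.12.

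Called in the same direction in both contrasts were 3 genes, Fut10, Pop4 and Sox2ot. Fut10 was at 3.85, 2.80 and 3.79 CPM in PS19 and at 10.5, 11.5 and 12.3 CPM in P301S Tia1+/- (log2 fold change 1.70). Pop4 was at 8.05, 8.17 and 8.43 CPM in PS19 and at 16.9, 15 and 16.7 CPM in P301S Tia1+/- (log2 fold change 0.98). Sox2ot was at 4.36, 6.56 and 6.81 CPM in PS19 and at 19.9, 18.1 and 21.5 CPM in P301S Tia1+/- (log2 fold change 1.75). In each of the 3 genes all 6 libraries with 1 Tia1 copy lay above all 6 with both copies. Entpd4 had a log2 fold change of 0.55 with the transgene at an adjusted p of 0.0691, and Zswim4 one of -0.98 at an adjusted p of 0.143, against -1.67 without the transgene. Zswim4 was at 63.0, 45.4 and 54.2 CPM in WT, 18.0, 17.1 and 15.8 CPM in Tia1+/-, and 19.7, 44.7 and 18.4 CPM in P301S Tia1+/-, of which the second lay within the PS19 range of 42.6 to 67.7 CPM.

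The chaperone and early gene lists had other medians with the transgene, and the difference of medians was not tested. The ER chaperone list had a median of -0.099 with the transgene and the heat shock list one of -0.096. Hspa5 had a log2 fold change of -0.12 (adjusted p = 0.702) and Manf one of -0.13 (adjusted p = 0.505). The immediate early genes had a median of 0.25 and Fosl2 had a log2 fold change of 1.14 (adjusted p = 0.105). In the heat shock list 1 member was called, Hsph1, at -0.53 (adjusted p = 0.0440), against -0.30 (adjusted p = 0.109) without the transgene. The oligodendrocyte markers were all lower with the transgene, with a median of -0.33. The interaction, that is the difference between the 2 contrasts, was called in 1 autosomal gene (0.00674%), F630042J09Rik, while 86 of the 97 genes, chosen by one of the contrasts that enter it, had an interaction p under 0.05 before adjustment. F630042J09Rik, a noncoding RNA gene on chromosome 13 from 67278577 to 67283361, was at 0.640, 0.423 and 0.760 CPM in WT and at 2.07, 1.77 and 2.26 CPM in Tia1+/-. With the transgene the order was reversed, from 2.55, 4.56 and 3.55 CPM in PS19 to 0.943, 1.02 and 0.892 CPM in P301S Tia1+/-. Olfactory markers summed to 927 to 1114 CPM in the P301S Tia1+/- libraries and to 112 to 151 CPM in PS19, and their part in this contrast was not tested.

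The called genes were spread over the genome. Tia1 lies on chromosome 6 from 86404219 to 86433405 (GRCm38), where genes from the donor strain of the knockout can stay linked to the allele. Within 5 Mb of Tia1, 111 genes were tested, 0 were called by edgeR, 3 by DESeq2 and 22 (19.8%) had an unadjusted p under 0.05, against 19.1% of all autosomal genes. The smallest adjusted p there was 0.0989, for Pcgf1. Chromosome 11 held the most called genes, 12 of 1226 tested (0.979%), and chromosome 6 held 5 of 759 (0.659%), next to the share of 0.654% over all autosomes.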

How the data were processed

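The authors aligned paired-end reads from cortical total RNA to mm10 and counted them per gene symbol. TopHat2 2.0.6 and featureCounts are named in the submitters' processing notes, and the strand setting and annotation of the counting are not given in the sources used here. The deposited values are raw counts for 24062 symbols in 12 libraries, and 0 columns lacked a sample. Rn45s took 0.117% to 1.03% of the counts in the 6 libraries compared. Samples were grouped by title, and the members and gene lists were chosen with earlier results of these data known.

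Positions came from GENCODE M21 names (21757 autosomal, 950 X and 43 Y symbols), then RefSeq symbols and synonyms, and 136 symbols were unmatched. Promoter windows are RefSeq's on GRCm38.p6. In R 4.3.3, edgeR 4.0.16 was used with filterByExpr, TMM scaling and the quasi-likelihood F test in 1 model of the 12 libraries and 4 group means. Benjamini-Hochberg adjustment ran over all 15440 genes, and genes with an adjusted p under 0.05 were called. Where a group had at most 3 counts in each library, the fold change is a lower bound against 3 counts, which covers counting error only. Named genes are autosomal, called and without overlap between the groups: the 8 largest rises and falls, the 8 smallest p values in each direction at a mean of at least 10 CPM, and every called list member, with Tia1, Tial1, Mapt, Prnp, the sex genes and up to 4 uncalled members of a list. Genes outside this rule are said to be picked after their values were seen, and further uncalled list members are given as values only.

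The test was checked on simulated data with known changes. Of genes changed 1.5-fold, 9 of 67 were called, of those changed 2-fold 43 of 67, and of those changed 4-fold 61 of 66. Among unchanged genes 5 were called. No difference of tissue or sex between libraries was simulated. Same-numbered WT and Tia1+/- libraries had residual correlations of -0.55, 0.387 and -0.546, so numbers do not pair them. Alternatives were DESeq2 1.42.0 size factors and Wald test, no filter, a filter of 10 counts, a replicate block, the compared libraries alone, striatal and olfactory levels as covariates (mean log2 CPM with 0.5 added), both doubtful libraries left out, X- and Y-linked genes left out, genotype entries in place of titles, and each library left out. An oligodendrocyte covariate was added after the data were seen. A few gene results are not reported here.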

Additional observations from a re-analysis of the deposited data

Results flagged for a closer look

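One gene differed between the contrasts with and without the tau transgene by the test of the difference itself. F630042J09Rik had an interaction of -3.61 in log2 units (edgeR adjusted p = 0.0466, standard error 0.415), since its log2 fold change was 1.72 for Tia1+/- against WT and -1.88 for P301S Tia1+/- against PS19, and in both contrasts the groups did not overlap. This call was lost without Tia1+/- replicate 1 or 2, PS19 replicate 2 or 3, or any P301S Tia1+/- library. The levels of F630042J09Rik were at most 4.56 CPM in any library. The groups of 3 libraries are too small for a test of single outlying libraries.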

How the results depend on the processing

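None of the 97 calls between Tia1+/- and WT held in every fit, since 0 genes were called with the oligodendrocyte covariate (2212 had an unadjusted p under 0.05), and where a count changed the cause was not tested. The 97 calls became 97 with DESeq2's size factors, 103 with at least 10 counts in every library and 93 without X- and Y-linked genes. They became 934 with DESeq2's Wald test, 63 without a filter and 1 with only the libraries compared. With the striatum and olfactory levels as covariates they became 8 and 1044, and 0 with the oligodendrocyte covariate. Without Tia1+/- replicate 3 and WT replicate 1 they became 250. With genotype entries in place of titles 187 genes were called, of which 42 were among the 97. With 1 library left out the count was 3 to 465 (3 without Tia1+/- replicate 1, 465 without WT replicate 3). With the replicate number as a replicate block they became 3, the 29 calls between P301S Tia1+/- and PS19 became 1 and the interaction 0, and the numbers do not pair the samples.

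The 29 calls became 814 with the Wald test, 19 with at least 10 counts, 2904 with only the libraries compared, 262 and 721 with the striatum and olfactory covariates, 18 without X- and Y-linked genes, 3 with the oligodendrocyte covariate and 1 to 6 with 1 library left out. The 1 interaction call became 1196 with the Wald test, 5 without a filter, 0 with at least 10 counts, 318 and 861 with the striatum and olfactory covariates, 2023 without the 2 doubtful libraries, 0 with the oligodendrocyte covariate and 0 to 997 with 1 library left out.

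Of the uncalled check genes, Tia1, Mapt and Prnp changed sign in some fits and Tial1 in none. The log2 fold change of Tia1 was 0.0311 with the oligodendrocyte covariate. That of Mapt was -0.0778 and -0.150 with the olfactory and oligodendrocyte covariates. That of Prnp was 0.162 with the striatum covariate and -0.300 to 0.139 with 1 library left out, with 0.0103 without WT replicate 2. Among single genes and lists, 988 values kept their call or stayed within the spread, 384 lost the call in the same direction and 216 moved. A change of sign was labelled for single genes only, and 6 of their values had one. List medians that crossed 0 are not among these 6. An example is the olfactory list, with -2.98 as reported and 0.674 with genotype entries in place of titles. Genes with few counts, such as Prl and Krt20, limit their fold changes to lower bounds.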
